A study of Mus musculus with 2 samples.

Results

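A set of 40 genes that encode ribosome biogenesis factors was described in megakaryocyte-erythroid progenitors (MEP) of mouse bone marrow. The genes were chosen by symbol, by a rule that uses no measured value, though with earlier results of these data known. All 40 had a row in the gene tables, out of 21461 nuclear protein-coding genes. The series held 1 group, MEP from male C57BL/6J animals (5 to 6 weeks old), as 2 libraries that the labels number as replicates 1 and 2. No genotype, transgene or treatment is given in the labels. Each library was prepared from 100 ng of rRNA-depleted total RNA with the ScriptSeq kit, and the size range was 200 to 1000 in replicate 1 and 215 to 1000 in replicate 2, with no unit stated. The labels call them biological replicates, but both carried the same donor entry, with separate biosample entries. Whether they came from separate animals, and how much of their difference is technical, cannot be told. With 1 group no comparison of conditions exists, and 2 libraries allow no test. Every value below is therefore a description.

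Ribosomes are built in the nucleolus. RNA polymerase I transcribes the precursor of most ribosomal RNA, and small nucleolar ribonucleoproteins (snoRNPs) guide its methylation and pseudouridylation. Assembly factors then fold, cut and carry the small and the large subunit towards the cytoplasm. Blood-forming cells depend on this pathway, and inherited defects of it in humans, in DKC1 and SBDS for example, cause bone marrow failure syndromes. Because rRNA was depleted before sequencing, the product of the pathway was not measured here, only the RNA of its factors.

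Replicate 1 held 39919884 expected counts and replicate 2 held 48043010. The members took 1.53% of them in replicate 1 and 1.50% in replicate 2, with 558 counts at the lowest (Gar1 in replicate 2) and 181444 at the highest (Npm1 in replicate 2). Levels are given as TPM, a share of transcripts, a measure per length that is scaled over all rows of a table. Nuclear protein-coding genes held only 25.5% of TPM in replicate 1 and 20.6% in replicate 2. Erythroid markers were present, 9 of 9 reaching 1 TPM in each library, summing to 1370 TPM in replicate 1 and 1371 in replicate 2, mostly from Car1 and Car2, and Gata1 was at 35.8 and 31.3. All 9 had a centred ratio (replicate 2 over replicate 1, explained below) above 0, with a median of 0.35, and the globin genes Hbb-bt, at 5.57 and 21.3, and Hba-a1, at 5.26 and 21.4, were past 2-fold. Of the megakaryocyte markers 4 of 7 passed (sum 63.3 and 24.2), of the stem and multipotent markers 4 of 6 (77.3 and 20.1, with Ly6a at 0), of the neutrophil markers 5 of 7 (63.4 and 128) and of the lymphoid markers 1 of 7 (7.01 and 15.1, with Cd3e, Cd4 and Cd8a at 0). The stem, megakaryocyte, neutrophil and lymphoid sums thus differed between the libraries, with single genes going the other way (Mpo at 8.53 and 1.64, Gp9 at 0.43 and 1.65). The part of these markers and of the erythroid ones in the differences of the members given below was not tested. Proliferation markers passed in 6 of 6 cases, at 613 and 521. In bulk RNA, fewer cells of a type and less RNA per cell cannot be told apart.

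All 40 members were detected, which here means 1 TPM or more in each library, against 39.4% of nuclear protein-coding genes. Their median TPM was 29.1 (32.5 in replicate 1 and 27.99 in replicate 2), against 8.13 for the 8452 detected genes, and 37 of the 40 lay above that median. Levels spanned 273-fold, from a mean of 5.60 for Bysl, which encodes bystin, a late factor of the small subunit, to 1528 for Npm1, the nucleolar chaperone nucleophosmin. Of the members, 27 ranked among the top 10% of protein-coding genes by mean TPM, 18 among the top 5% and 4, Npm1, Nop58, Ncl and Nop56, among the top 1%. No member ranked below percentile 75.1. Together they held 1.74% of protein-coding TPM in replicate 1 and 1.69% in replicate 2, of which Npm1 alone made up 38.4% and 38.6%.

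**Figure D1:**
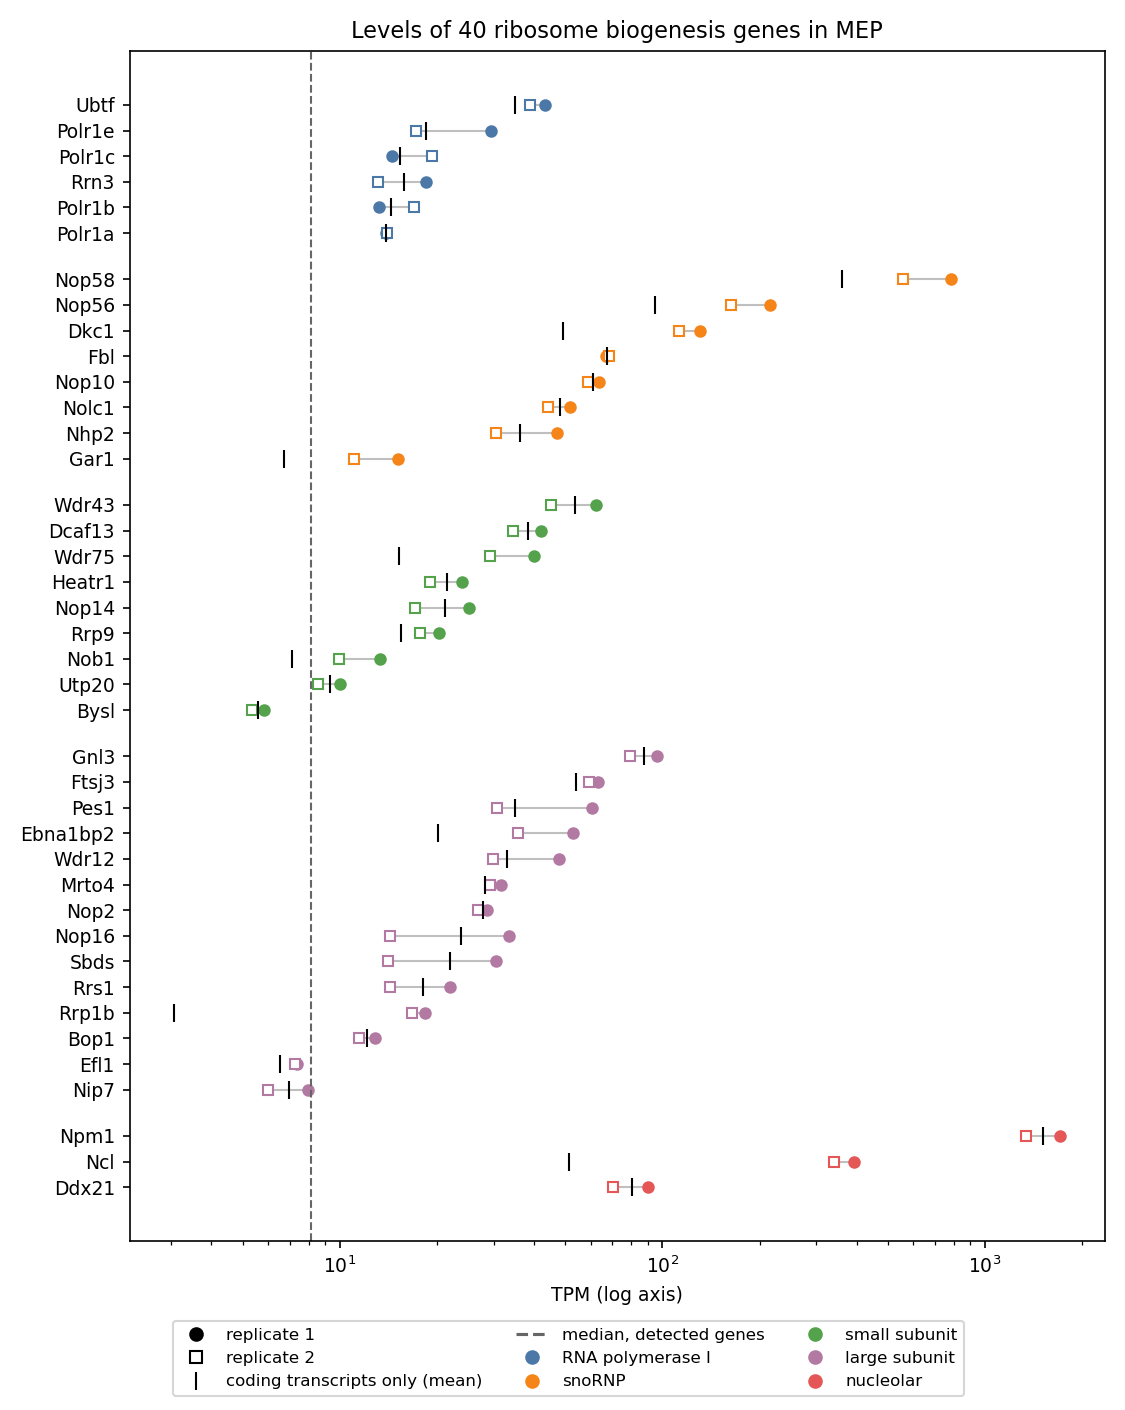
TPM on a log axis of each of the 40 genes in replicate 1 (filled circles) and replicate 2 (open squares), grouped by role; ticks mark the mean TPM of protein-coding transcripts alone and the dashed line is the median of detected genes, 8.13. Npm1, Nop58, Ncl and Nop56 stand highest, and the tick of Ncl lies far left of its gene level.

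By role, the nucleolar group of 3 genes had the highest median TPM, 366, followed by the 8 snoRNP genes at 64.2, the 14 large-subunit factors at 25.8, the 9 small-subunit factors at 21.1 and the 6 genes of RNA polymerase I transcription at 16.4. The order of the libraries' own levels was similar, with a Spearman rho of 0.95 across the 40 genes, which share the same 2 libraries and are not independent replicates. Role groups overlapped: by mean TPM Gar1, an snoRNP gene at 13.1, lay below all 6 genes of RNA polymerase I transcription. In replicate 1 alone Gar1, at 15.2, was above Polr1a, Polr1b and Polr1c, at 13.9, 13.2 and 14.5.

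The genes of RNA polymerase I transcription lay within a narrow band. Ubtf, which encodes the upstream binding factor that sits on ribosomal DNA, was the highest at 43.4 TPM in replicate 1 and 38.9 in replicate 2 (mean 41.2 ± 3.17, SD, n = 2). Polr1a, the largest subunit of the enzyme, had 13.9 and 14.0 TPM, and Polr1b, its partner subunit in the catalytic core, 13.2 and 17.0. Polr1a and Polr1b did not keep an order: the authors' TPM intervals, whose level is not stated, overlapped in replicate 1 and lay apart in replicate 2. Polr1c, a subunit shared with RNA polymerase III, had 14.5 TPM in replicate 1 and 19.3 in replicate 2, and the polymerase subunit gene Polr1e had 29.4 and 17.2. Rrn3, which encodes the initiation factor TIF-IA, was at 18.5 and 13.2. Apart from Ubtf, these genes changed places between the libraries, so their order was not separated from the spread.

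Among box C/D snoRNP genes, whose complexes methylate rRNA, Nop58 and Nop56 were above Fbl by gaps that depended on the transcripts counted. Nop58, a core protein gene (mm10, chr1:59684971-59719044, plus strand), had 783 TPM in replicate 1 and 557 in replicate 2, mean 670 ± 160 (SD, n = 2). Its partner Nop56 (chr2:130274430-130279313, plus strand) had 216 and 163. Nop56 exceeded Fbl 3.24-fold in replicate 1 and 2.38-fold in replicate 2, but only 1.52-fold and 1.29-fold in coding transcripts alone. Fbl, the methyltransferase fibrillarin, had 66.7 and 68.2, and Nop58 exceeded it 11.7-fold in replicate 1 and 8.16-fold in replicate 2. On the log2 scale the gap of Nop58 over Fbl was 3.29 ± 0.37 (SD, n = 2), and with protein-coding transcripts alone it was 2.40 ± 0.30. That gap was many times its spread between the libraries, and the authors' intervals for the gene TPM lay apart in both. It rested largely on short transcripts, described below. The coding transcript Nop58-201, of 1713 bases, alone had 87.7 and 58.8 TPM, above Fbl in replicate 1 and below it in replicate 2.

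Among box H/ACA genes, whose complexes turn uridine into pseudouridine, Dkc1 was highest and Gar1 lowest. Dkc1, which encodes the pseudouridine synthase dyskerin (chrX:75095854-75109777, plus strand), had 130 TPM in replicate 1 and 113 in replicate 2. Nop10 had 63.5 and 58.6, and Nhp2 47.1 and 30.4, both core proteins. Gar1, the remaining core protein gene (chr3:129824912-129831396, minus strand), had 15.2 and 11.0 TPM. Dkc1 exceeded Gar1 8.61-fold and 10.2-fold, or 3.23 ± 0.17 on the log2 scale (SD, n = 2). In protein-coding transcripts alone Gar1 stayed lowest in both libraries, while Dkc1 was highest in replicate 1 and Nop10 in replicate 2. Nolc1, encoding the snoRNP chaperone Nopp140, had 51.6 and 44.4 TPM.

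Small-subunit factors ran from Wdr43 down to Bysl. Wdr43, Wdr75 and Heatr1 belong to UTP-A, a module of the small-subunit processome that joins the nascent transcript early. Wdr43 had 62.1 TPM in replicate 1 and 45.2 in replicate 2, Wdr75 39.9 and 29.1, and Heatr1 23.9 and 19.0. Wdr43 thus exceeded Heatr1 2.60-fold and 2.38-fold, 1.31 ± 0.09 on the log2 scale (SD, n = 2), and all 3 kept their order. With protein-coding transcripts alone Wdr75 was the lowest of them in both libraries. Dcaf13, another processome gene, had 42.2 and 34.5 TPM. Nop14, of the processome too, had 25.1 and 17.1, and Rrp9, a protein of the U3 snoRNP, 20.3 and 17.8. The lower end held Nob1, the endonuclease that makes the mature end of the small-subunit rRNA, at 13.4 and 9.94, the processome gene Utp20 at 10.03 and 8.59, and Bysl at 5.84 and 5.35. By gene TPM Bysl and Utp20 were thus the lowest small-subunit factors in both libraries. In protein-coding transcripts alone Nob1, at 5.51 in replicate 1 and 8.7 in replicate 2, lay below both in replicate 1 and above both in replicate 2. Utp20 still lay above the median of detected genes, 8.87 in replicate 1 and 7.2 in replicate 2.

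Large-subunit factors were led by Gnl3, which encodes the nucleolar GTPase nucleostemin, at 96.3 TPM in replicate 1 and 79.5 in replicate 2. Ftsj3, a methyltransferase-like factor, followed at 63.1 and 59.1. In the PeBoW complex of Pes1, Bop1 and Wdr12, needed for maturation of the large-subunit rRNA, the levels were unequal. Pes1 had 60.3 and 30.8 TPM, Wdr12 47.7 and 29.8, and Bop1 12.9 and 11.5. Pes1 exceeded Bop1 4.70-fold in replicate 1 and 2.67-fold in replicate 2, and Bop1 was the lowest of the 3 in both. In coding transcripts alone the ratios were 3.03 and 2.67. Sbds and Efl1 act together to release Eif6 from the large subunit. Sbds was at 30.5 and 14.1 TPM and Efl1, the GTPase, at 7.36 and 7.26. The gap was 1.51 ± 0.77 on the log2 scale (SD, n = 2), and the centred ratios given below were -0.79 for Sbds and 0.26 for Efl1.

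The other large-subunit factors lay between 5.99 and 52.9 TPM. Ebna1bp2 had 52.9 TPM in replicate 1 and 35.7 in replicate 2, and Nop16 33.4 and 14.3. Mrto4, a protein related to the ribosomal stalk protein Rplp0, had 31.6 and 29.3. Nop2, an rRNA methyltransferase gene, had 28.6 and 26.9. Before centring, the TPM of Mrto4 and Nop2 thus lay closer together than that of Nop16. Rrs1, an assembly factor of the large subunit, had 22.0 and 14.4 TPM, and Rrp1b had 18.4 and 16.8. Nip7 was lowest of the group at 7.98 and 5.99.

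The nucleolar group held the gene with the highest level. Npm1 (chr11:33152287-33163206, minus strand) had 1712 TPM in replicate 1 and 1344 in replicate 2, mean 1528 ± 261 (SD, n = 2). Ncl, which encodes nucleolin (chr1:86344719-86359400, minus strand), had 393 and 340. Ddx21, a DEAD-box RNA helicase, had 90.5 and 70.3. Npm1 exceeded every other member in both libraries.

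By TPM, no member differed by more than 2-fold between the libraries once the shift of all genes was taken off. For each gene the log2 ratio of TPM + 1, replicate 2 over replicate 1, was centred on its median over the 9033 protein-coding genes averaging 1 TPM or more, which was -0.27 before centring. A centred ratio past 2-fold either way was found for 0 of 40 members, against 6.31% of these genes (3.41% higher and 2.9% lower in replicate 2) and 4.26% of those averaging 5 TPM or more. The members' median centred ratio was -0.02, with 19 above 0 and 21 below, against 50% of genes above 0. Of the 40, 35 lay within 0.5 of 0, against 72.7% of genes. Without centring, 36 of 40 TPM values were higher in replicate 1, against 73.1% of genes, while 33 of 40 counts were higher in replicate 2, against 70.7%. Without centring Nop16 and Sbds passed 2-fold, both lower in replicate 2, against 8.13% of genes either way and 6.47% lower.

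The members outside 0.5 were Polr1c at 0.66 and Polr1b at 0.62, both higher in replicate 2, and Pes1 at -0.68, Sbds at -0.79 and Nop16 at -0.90, all lower in replicate 2. All 5 had several annotated transcripts, while the 15 members with a single transcript lay between -0.31 and 0.30. Ratios of TMM-scaled counts, which use no length, were past 2-fold for none of the 40, against 7.23% of genes. Polr1c lay so near the 2-fold limit that its place inside it depended on the 0.5 CPM added, which was not varied. Of the 40, 37 lay within 0.5, a number that was not set beside a share of all genes. For Polr1c, Polr1b and Sbds the count ratios, 0.99, 0.65 and -0.73, were of similar or larger size, with 1205 counts of Polr1c in replicate 1 and 2817 in replicate 2. For Pes1 and Nop16 they were -0.09 and -0.26. Pes1 had 10120 and 11096 counts at effective lengths of 1837 and 2683 bases, and Nop16 3036 and 2938 counts at 997 and 1530 bases. Effective length, the deposited length by which counts are divided, changed by over 1.25-fold in 4 members, Pes1, Nop16, Nob1 and Dkc1, or 10% of the members, against 18.6% of genes. The TPM differences of Pes1 and Nop16 thus went with their effective lengths more than with their counts.

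**Figure D2:**
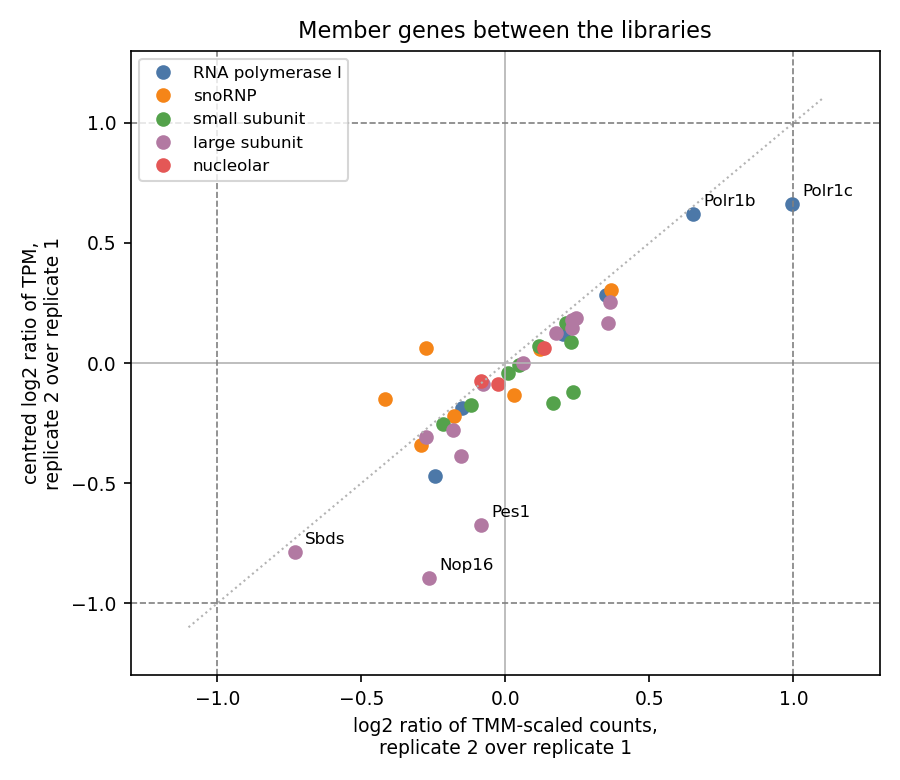
Each point is 1 of the 40 genes, coloured by role: the log2 ratio of TMM-scaled counts on the x axis and the centred log2 ratio of TPM on the y axis, both replicate 2 over replicate 1, with dashed lines at 2-fold and a dotted line of equality. All points lie inside 2-fold, Polr1c only just on the count axis, at 0.99. Pes1 and Nop16 sit near 0 on the count axis and at -0.68 and -0.90 on the TPM axis.

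Transcript tables showed that part of the gene levels came from transcripts of classes other than protein-coding. The classes used here are protein-coding, retained intron, nonsense-mediated decay (a transcript with a premature stop) and processed transcript (no reading frame). Of the 25 members with several transcripts, 18 (72%) were led by 1 and the same transcript in replicates 1 and 2, against 72% of 6363 detected genes with several. The leading transcript was not protein-coding in both libraries for 5 members (20%), Nop58, Gar1, Ebna1bp2, Rrp1b and Ncl, against 8.24% of genes. Protein-coding transcripts made up under 50% of TPM in both libraries for 4 of 25 (16%), Ncl, Dkc1, Ebna1bp2 and Rrp1b, against 9.34%. Their median share among the 25 was 79.0% in replicate 1 and 88.2% in replicate 2, against 91.6% and 93.8% for detected genes.

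Ncl showed the lowest coding share. Retained-intron transcripts held 85.8% of its TPM in replicate 1 and 86.3% in replicate 2, and 67.1% and 69.5% of its counts. The leading transcript Ncl-202, of 3072 bases, had 303 and 274 TPM, and the coding transcript Ncl-201 had 53.8 and 43.1. Counted by coding transcripts alone, Ncl fell in rank among the members to place 10, against place 3 by gene TPM. Other members lost rank in the same way: Dkc1 stood at place 11 by coding transcripts and 5 by gene TPM, Ebna1bp2 at 24 and 14, Wdr75 at 30 and 19, and Rrp1b at 40 and 29. The share of retained-intron RNA of Ncl was thus high by TPM and by counts in both libraries. Total RNA holds unspliced nuclear RNA as well as messenger RNA, and which of these the retained-intron values hold was not tested.

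In Nop58 the class shares depended strongly on the measure. Its decay-annotated transcripts held 45.9% of TPM in replicate 1 and 42.1% in replicate 2, but only 15.0% and 16.5% of counts. The leading transcript Nop58-205 is 373 bases long and had 343 and 200 TPM. The coding transcript Nop58-201, of 1713 bases, had 87.7 and 58.8 TPM from more counts, 11929 and 11763 against 4853 and 4124. Nop58-206 and Nop58-207, classed as protein-coding but only 638 and 585 bases long, added 209 and 122 TPM and 96.6 and 120 TPM. The high TPM of Nop58 thus rested largely on short transcripts.

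In Nop56, retained-intron transcripts held 51.9% of TPM in replicate 1 and 44.4% in replicate 2, and in Gar1 47.4% and 50.4%. Ebna1bp2 had 55.4% and 53.0% in processed transcripts. Coding transcripts of Rrp1b held 19.4% and 15.2%. By counts the shares of these classes were smaller in Nop56, at 43.1% and 34.9%, in Gar1, at 19.97% and 26.2%, and in Ebna1bp2, at 20.4% and 18.8%. Retained-intron transcripts of Rrp1b went the other way, with 26.6% and 53.9% of TPM but 45.1% and 60.5% of counts. Coding transcripts held 43.8% and 33.6% of the counts of Rrp1b, and 84.8% and 74.3% of those of Dkc1, against 49.4% and 30.5% of its TPM. The class shares of these genes thus depended on the measure, as in Nop58. Coding shares of TPM differed between the libraries in Wdr75, at 31.7% and 61.4%, and in Nob1, at 41.2% and 87.7%. The processed transcript Pes1-203 had 20.6 TPM in replicate 1 and was listed at 0 in replicate 2, where the gene TPM was lower. Nop16-202, protein-coding and shorter than Nop16-201, was at 18.5 TPM in replicate 1 and likewise listed at 0 in replicate 2. The leading transcript differed between the libraries in 7 members: Ubtf, Dkc1, Wdr75, Efl1, Rrp1b, Nop16 and Npm1. In Npm1 the exchange was between coding transcripts, Npm1-201 with 690 and 429 TPM and Npm1-203 with 540 and 545. In coding transcripts alone the median TPM of the members was 22.9, and the rank order of the 40 was largely kept (Spearman rho 0.94 across genes).

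**Figure D3:**
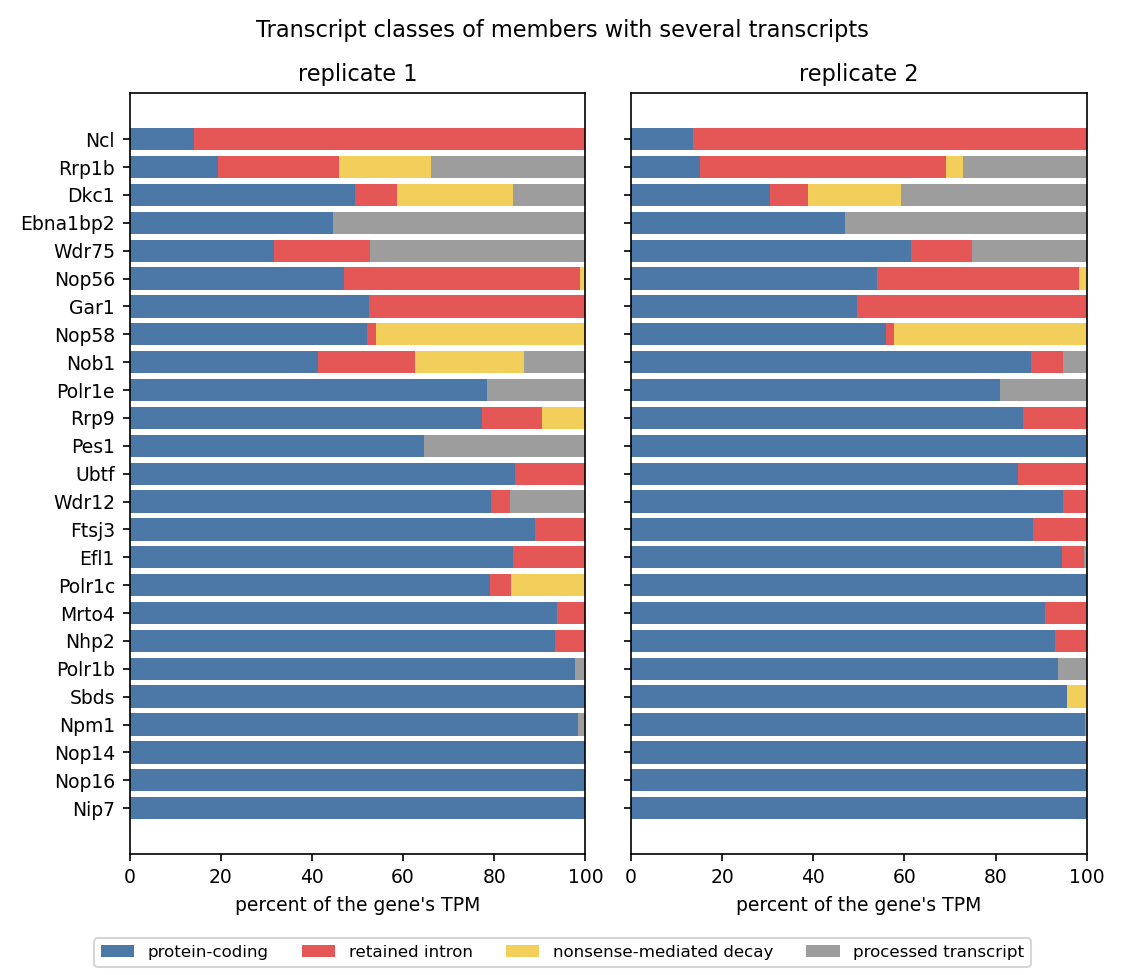
Percent of each gene's TPM by annotated transcript class for the 25 members with several transcripts, replicate 1 left and replicate 2 right. Ncl is mostly retained intron in both panels, and Wdr75, Nob1 and Pes1 hold a larger coding share in replicate 2.

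Several members carry snoRNA genes inside their span, the guide RNAs of the same snoRNPs. On the same strand and inside the span of 6 members lay 19 annotated snoRNA genes: 5 in Nop56, 4 in Nop58, 3 each in Wdr43, Gnl3 and Ncl and 1 in Dkc1. The share of other protein-coding genes that carry snoRNA genes was not computed. Of these, 16 were 68 to 87 bases long and had an effective length of 0 in the deposited tables, so their TPM of 0 is no measure of their level. All 16 also lacked 10 counts in both libraries, and 1.75% of the 514 snoRNA genes with an effective length of 0 had them. Of the 19, 1 had at least 10 counts in both libraries, against 5.19% of 1484 annotated snoRNA genes. Of the 3 with an effective length above 0 it was also 1, against 7.2% of 945 such genes. This gene was Gm24451 in Nop56 (mm10, chr2:130276237-130276369, plus strand), with 370 counts in replicate 1 and 247 in replicate 2. Snora75 in Ncl (chr1:86351169-86351301, minus strand) had 0 and 5.2 counts, and Gm25520 in Dkc1 had 0 in both. Effective lengths of these 3 genes were only 1.15 to 3.06 bases, so their low counts too say little about their level. Reads of such a gene cannot be told apart from those of the host's unspliced RNA. The sequences of the 2 that had counts are shown with that of Snord57 (chr2:130278016-130278087, plus strand), also in Nop56, with 0 counts and an effective length of 0. They are from GENCODE M21, 5′ to 3′, as DNA letters. Capitals mark an ACA 3 bases before the 3′ end, the place where H/ACA RNAs carry it, and the D box CTGA of the box C/D RNA Snord57.
Gm24451: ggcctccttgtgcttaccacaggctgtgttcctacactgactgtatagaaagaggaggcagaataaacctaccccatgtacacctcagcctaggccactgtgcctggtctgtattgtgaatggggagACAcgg
Snora75: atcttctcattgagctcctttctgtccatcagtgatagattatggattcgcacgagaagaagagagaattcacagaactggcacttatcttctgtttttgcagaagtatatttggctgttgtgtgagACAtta
Snord57: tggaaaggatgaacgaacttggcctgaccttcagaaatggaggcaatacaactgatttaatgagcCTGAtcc

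Promoter sequences were compared for motifs that bind factors known to act on growth genes, among them the E-box CACGTG bound by Myc and Max. RefSeq windows (GRCm38.p6) of 300 bases, 250 before the start and 50 after it, were matched for 34 members. Those without a match were Dcaf13, Bop1, Rrs1, Fbl, Sbds and Npm1. Both strands were searched, and matches of different motifs may share bases. The E-box CACGTG was found in 5 of 34 members (14.7%), against 12.8% of detected genes and 9.24% of all genes with a window. It lay before the start in Nop2, by 60 bases, and in Rrn3, by 215 and 48 bases, and after the start in Pes1, Utp20 and Wdr43. The ETS-type motif CCGGAA was found in 44.1% of the members, against 37.5% of detected genes, the GC box GGGCGG in 73.5% against 71.1%, and TATAAA in 5.88% against 7.68%. The members' shares of all 4 motifs thus lay nearer to those of detected genes than to those of all genes, which were 21.7%, 51.4% and 14.1% for the last 3. A match is a run of letters and not a measured binding site. The 250 bases before the start of Nop2 (chr6:125131633-125131882, plus strand) and Rrn3 (chr16:13780449-13780698, plus strand) are shown because they hold the E-boxes upstream of the start, in capitals, 5′ to 3′.
Nop2: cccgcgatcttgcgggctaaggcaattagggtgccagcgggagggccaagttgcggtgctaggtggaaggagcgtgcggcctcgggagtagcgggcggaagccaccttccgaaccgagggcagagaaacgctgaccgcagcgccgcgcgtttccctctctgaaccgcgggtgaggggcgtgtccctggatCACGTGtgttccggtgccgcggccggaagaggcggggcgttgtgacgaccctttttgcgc
Rrn3: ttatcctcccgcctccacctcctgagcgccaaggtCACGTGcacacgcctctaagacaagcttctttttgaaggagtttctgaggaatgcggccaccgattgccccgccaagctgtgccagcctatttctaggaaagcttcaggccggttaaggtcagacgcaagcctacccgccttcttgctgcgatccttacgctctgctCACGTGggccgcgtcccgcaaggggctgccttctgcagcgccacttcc

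Many members start close to a gene on the other strand. A protein-coding gene on the other strand with its start within 1000 bases was annotated for 17 of 40 members (42.5%), against 19.4% of the 9033 genes averaging 1 TPM or more and 21.5% of the top 10% of genes by level. For 12 of the 17 the neighbour was detected in both libraries, a share that was not set beside that of other genes. Gnl3 starts 14 bases from Pbrm1, which had 20.4 TPM in replicate 1 and 19.3 in replicate 2. Polr1c starts 26 bases from Yipf3, at 8.78 and 8.23 TPM, while Ebna1bp2 starts 22 bases from Cfap57, which was at 0 in both. Mrto4 has its start 11 bases from Emc1 (6.36 and 12.01 TPM) and 33 bases from Ubr4 (20.95 and 17.2). Ftsj3 has Psmc5 at 75 bases (34.1 and 23.8), and Sbds has Tyw1 at 89 bases (13.6 and 10.7). The partner's level thus ranged from 0 to well above the median of detected genes. Of the 40 members, 11 overlapped another protein-coding gene with counts, all on the other strand, against 22% of genes averaging 1 TPM or more (either strand). The overlaps were 5 to 2319 bases long, the longest being Polr1e with Fbxo10. The sources do not state whether counting used strand, so reads in these overlaps, which the tables do not count separately, cannot be told apart.

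Other genes of the pathway, from a wider list that left out the members, were also all present. Of 141 listed, 140 were found and all 140 were detected. The members' median TPM of 29.1 stood beside 17.1 for these genes. The highest were Taf1d, of the RNA polymerase I initiation factor, at 205 TPM in replicate 1 and 143 in replicate 2, Rsl1d1 at 109 and 75.8, and Rrp1 at 89.4 and 73.9. Past 2-fold between the libraries were 3 of the 140, all higher in replicate 2, a smaller share than the 3.41% of genes. They were Eif6, the factor that Sbds and Efl1 release, at 13.5 and 23.8 TPM, the RNase P and MRP subunit gene Pop5 at 18.5 and 33.1, and Nle1, a large-subunit factor, at 4.95 and 9.71. Eif6 (centred ratio 1.05) and Efl1 (0.26) had positive ratios and Sbds (-0.79) a negative one. Sbds and Efl1 were inside 2-fold, and a link between these genes was not tested. The count ratio of Pop5 was 0.65, and in coding transcripts alone its centred ratio was -0.24, so its direction depended on the transcripts counted. As a scale for these levels, cytosolic ribosomal protein genes had a median TPM of 579 (79 genes) and mitochondrial ribosomal protein genes one of 17.3 (75 genes). By gene TPM, Npm1 and Nop58 were the members above the cytosolic ribosomal protein median. In coding transcripts alone Nop58, at a mean of 359.7 TPM, lay below that list's median of 513.

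**Figure D4:**
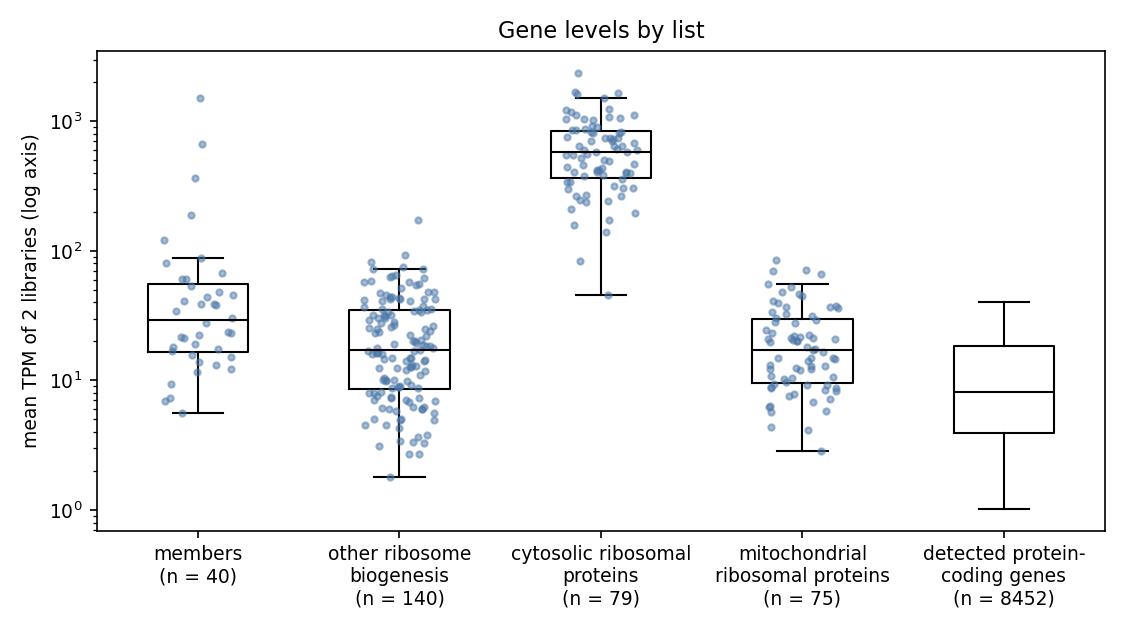
Mean TPM of the 2 libraries on a log axis, 1 point per gene, for the 40 members and 3 other lists, with a box alone for the 8452 detected protein-coding genes; boxes show quartiles, and whiskers reach the last gene within 1.5 box lengths. The members' median of 29.1 lies above that of detected genes, 8.13, and below that of cytosolic ribosomal protein genes, 579.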

How the data were processed

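Per the file headers, the authors deposited for each library an expected count per gene and transcript (not normalized), a TPM scaled over all rows, a posterior mean TPM, TPM interval bounds whose level is not stated, and effective lengths in bases. A percent of each gene's TPM per transcript was deposited too. Per the labels and files the build was mm10, annotated with GENCODE M4; for the quantifier, none is given in the sources used here. Symbols, positions and transcript classes came from GENCODE M21 of the same assembly. Members and gene lists were chosen with earlier results of these data known. All members are named, with the 3 highest of the other pathway genes and those past 2-fold, and the snoRNA genes with counts. Expected counts were rounded for TMM (edgeR 4.0.16) and DESeq2 1.42.0 scaling in R 4.3.3, with 0.5 CPM added before the log2 ratio. Other steps used Python 3.11.15 and were tested on simulated data. No p-value was computed. Alternatives were pseudocount, filter, scaling, posterior mean TPM, transcripts counted, snoRNA count minimum and leaving out a library. Proteins are not shown.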

Additional observations from a re-analysis of the deposited data

How the results depend on the processing

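The detection of all 40 members and the 1 counted snoRNA gene kept their values under every alternative run for them, and the other pathway genes stayed at 139 or 140. Leaving out a library could lower none of these counts, nor could rescaling to protein-coding genes lower detection. The 1 TPM limit was not varied. The members' median TPM of 29.1 was 127 with TPM rescaled to protein-coding genes, 22.9 with protein-coding transcripts only, and 27.99 to 32.5 with 1 library left out. The members' share of protein-coding TPM, 1.72%, was 1.06% without Npm1. These settings for coding transcripts and for Npm1 were chosen after seeing the data. Without centring, or with no filter (the median over all genes is then 0, so nothing is centred), 2 members, Nop16 and Sbds, passed 2-fold, against 0. The other pathway genes past 2-fold then numbered 1, Rrp8, against 3, and 2 with TMM or DESeq2 scaling, while with protein-coding transcripts only the 3 were Eif6, Nmd3 and Tbl3 (named after their values were seen). The members' median ratio was -0.30 without centring, against -0.02, and 0.05 with TMM. Pop5 reversed to -0.24 with protein-coding transcripts only. The same transcript led in 15 of 19 members with protein-coding transcripts only and in 15 of 22 above a 5% share, against 18 of 25. Of 368 values of single genes, 247 moved by less than the spread of a typical gene, 0.21 on the log2 scale. Without centring, and likewise with no filter, all 46 genes moved, because each took on the same shift of -0.27. Those 2 settings thus say nothing about single genes. The filter at a mean of 5 TPM also shifted every gene alike, by less than that spread. Its 46 unmoved values thus say nothing about single genes either. TMM and DESeq2 scaling used the same counts, and each left 36 unmoved. The cause of the changes was not tested. No paired analysis was possible because the series has 1 group. With 2 libraries, differences smaller than their spread were not resolvable, and the members' snoRNA genes of 87 bases or less had an effective length of 0.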
